A study of Mus musculus with 6 samples.

Results

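Chemokines and their receptors were described in C3H10T1/2 cells, a line of mouse mesenchymal cells able to become fat, cartilage, bone or muscle cells in culture. The members were chosen by name: every probe set with 1 gene symbol in the platform annotation, where that symbol was Ccl, Cxcl, Cx3cl, Xcl, Ccr, Cxcr, Cx3cr, Xcr or Ackr followed by digits. This gave 84 of the 45101 probe sets on the array, for 52 genes, of which 32 encode ligands, 16 encode signalling receptors and 4 encode atypical receptors. BMP4 cells received 50 ng/ml of this secreted bone morphogenetic protein while they proliferated and were harvested past confluence (3 arrays). Control cells were harvested past confluence without BMP4 (3 arrays). Whether replicates came from separate cultures is not stated in the labels, and p-values therefore reflect the spread of these samples alone, which could be technical.

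Chemokines are small secreted proteins, sorted by the spacing of their first cysteines into CC, CXC, CX3C and XC families, that direct the migration of leukocytes and some tissue cells. They act on G protein-coupled receptors on the responding cell, while atypical receptors bind chemokines without coupling to G proteins and clear them or set their gradients. Mesenchymal cells such as fibroblasts and preadipocytes are known mainly as producers: they make Cxcl12, which retains blood progenitors in bone marrow, and, under inflammatory signals acting through NF-kappaB, Cxcl1 and Ccl2.

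The promoters of genes that changed are shown first, because NF-kappaB, AP-1, Smad and general promoter elements are the ones usually looked for at chemokine genes. RefSeq sequences of build GRCm38.p6 held a promoter for 39 of the 52 genes and for 5 of the 8 that changed with BMP4 (Cxcl1, Ackr3, Cxcl12, Ccl9 and Ackr4). The 250 bases before the transcription start are given 5′ to 3′, with capitals where a motif was found on either strand. The motifs searched were the NF-kappaB consensus, TGANTCA for AP-1, TATAAA for the TATA box, GGGCGG for the GC box and GGCGCC for Smad proteins, and adjoining capitals can belong to overlapping matches. The Cxcl1 window is chr5:90890995-90891244 (plus strand), that of Ackr3 is chr1:90203730-90203979 (plus strand), that of Cxcl12 is chr6:117168285-117168534 (plus strand), that of Ccl9 is chr11:83578637-83578886 (minus strand) and that of Ackr4 is chr9:104126644-104126893 (minus strand).
Cxcl1 promoter: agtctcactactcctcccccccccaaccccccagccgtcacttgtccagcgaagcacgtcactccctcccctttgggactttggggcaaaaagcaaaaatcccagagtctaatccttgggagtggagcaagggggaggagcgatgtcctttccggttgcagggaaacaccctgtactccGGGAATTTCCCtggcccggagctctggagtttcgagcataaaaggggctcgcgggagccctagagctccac
Ackr3 promoter: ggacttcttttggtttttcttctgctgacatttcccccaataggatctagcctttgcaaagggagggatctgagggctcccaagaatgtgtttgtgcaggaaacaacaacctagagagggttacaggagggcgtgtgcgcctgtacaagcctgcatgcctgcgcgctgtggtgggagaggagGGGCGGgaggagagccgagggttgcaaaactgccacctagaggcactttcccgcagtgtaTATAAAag
Cxcl12 promoter: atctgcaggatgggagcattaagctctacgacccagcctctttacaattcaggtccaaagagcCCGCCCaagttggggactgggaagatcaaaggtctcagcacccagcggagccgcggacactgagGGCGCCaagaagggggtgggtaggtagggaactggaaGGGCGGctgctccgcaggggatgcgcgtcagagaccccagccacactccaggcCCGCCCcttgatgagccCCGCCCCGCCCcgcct
Ccl9 promoter: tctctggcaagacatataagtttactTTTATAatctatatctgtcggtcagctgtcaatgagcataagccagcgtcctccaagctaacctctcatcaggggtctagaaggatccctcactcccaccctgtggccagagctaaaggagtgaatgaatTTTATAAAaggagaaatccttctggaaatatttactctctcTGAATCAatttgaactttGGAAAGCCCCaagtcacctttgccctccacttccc
Ackr4 promoter: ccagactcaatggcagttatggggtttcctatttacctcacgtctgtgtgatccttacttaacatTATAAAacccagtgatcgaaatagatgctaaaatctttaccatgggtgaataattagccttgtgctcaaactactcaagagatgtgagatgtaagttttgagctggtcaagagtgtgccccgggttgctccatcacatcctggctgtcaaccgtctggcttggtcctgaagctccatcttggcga

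The Cxcl1 promoter held the NF-kappaB consensus in 2 overlapping matches, the first starting 71 bases before the start, and none of the other motifs. Ccl9 also held this consensus, starting 35 bases before the start, with an AP-1 match at 53 bases and 3 TATA box matches, 2 of which overlap. Cxcl12 held 5 GC boxes, 2 of them sharing a base, and the Smad element starting 123 bases before the start. Ackr3 held a GC box match starting 68 bases before the start and a TATA box match starting only 8 bases before it. Ackr4 held a TATA box match starting 185 bases before the start. Of 32851 promoter windows of the same length, 3.9% held the NF-kappaB consensus, 6.75% AP-1, 12.4% the TATA box, 32.7% the GC box and 9.59% the Smad element. Among the 41 windows of the 39 member genes, 9 held the NF-kappaB consensus, 4 AP-1, 13 the TATA box, 6 the GC box and 2 the Smad element. These matches describe letters in the window and are no measure of binding.

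Most of the chemokine system lay at or near background, and what was measured well was ligands and atypical receptors. A signal of 29.1, in the scaled linear units of the table, served as background, being the top value among 27 unspiked bacterial control probe sets over the 6 arrays. Of the 52 genes, 20 had a probe set above 29.1 on all 6 arrays, 10 on some arrays and 22 on none. The 20 were 16 of 32 ligand genes and 4 of 4 atypical receptor genes, and 0 of 16 signalling receptor genes. By probe set, 26 of 84 were above on all arrays, 43 on none and 15 on some. BMP4 arrays had 34, 35 and 35 member probe sets above 29.1, and control arrays had 31, 30 and 34.

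**Figure D1:**
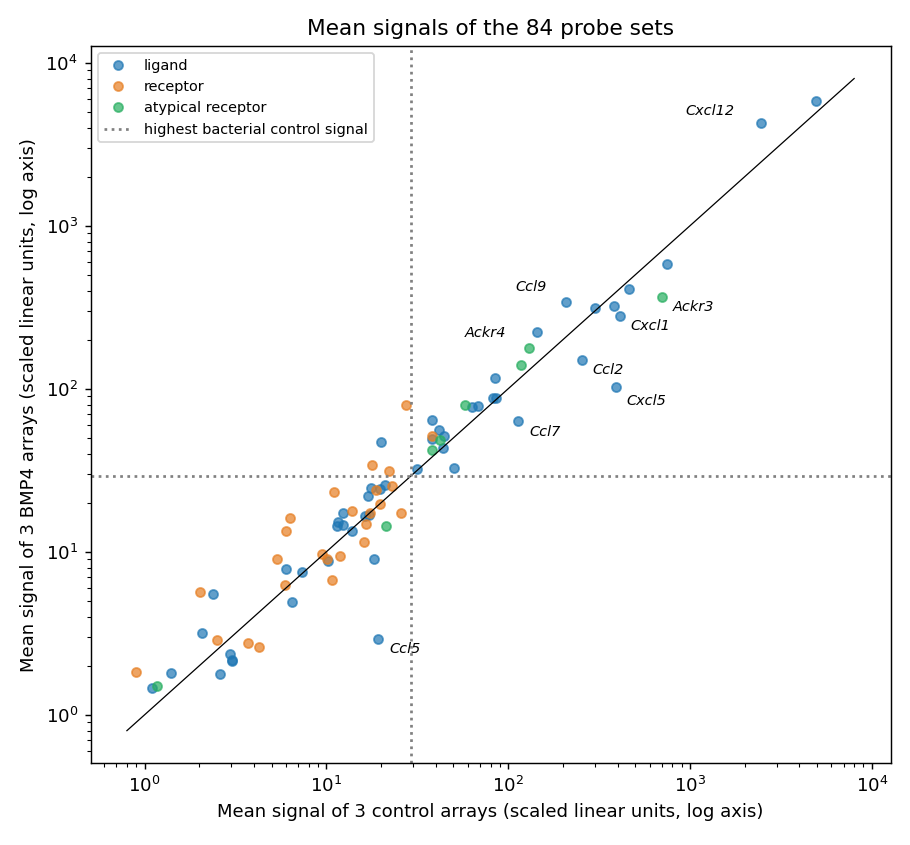
Mean signal of 3 BMP4 arrays (vertical, log axis) against that of 3 control arrays (horizontal, log axis) for the 84 probe sets, in scaled linear units, coloured by class; dotted lines mark a signal of 29.1, the solid line marks equal means. Signalling receptors cluster at the lower left, Cxcl12 lies at the upper right, and Cxcl5 (103 with BMP4, 392 in control) lies well below the line.

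All arrays had a 2% trimmed mean signal of 150, and 56% to 59% of probe sets other than controls lay above 29.1 on BMP4 arrays, against 54.4% to 55.7% on control arrays. The top bacterial control signals were 23.5, 29.1 and 24.1 on BMP4 arrays, against 17.1, 16.6 and 21 on control arrays. Median signals of all probe sets other than controls were 42.6, 38.9 and 37.6 on BMP4 arrays, against 37.3, 35.2 and 35.9 on control arrays. The groups did not overlap in either measure. The median bacterial control signals did overlap, at 8.4, 7.8 and 4.1 on BMP4 arrays against 5.3, 3.6 and 4.7 on control arrays. The part of these differences in the values of dim members was not tested. For marker and pathway lists, a gene was counted by its probe set with the highest mean. Of 11 fibroblast and mesenchymal markers all 11 were above 29.1 on every array, with Col1a1, a chain of type I collagen, at 7560 on average with BMP4 and 6940 in control. Of 15 leukocyte markers measured, 5 were above on all arrays (Cd14, Csf1r, Cd68, Adgre1 and Laptm5) and 5 on none, namely Ptprc, which defines leukocytes, Itgam, Aif1, Tyrobp and Cd3e. Their summed signal ran from 657 to 853 on BMP4 arrays and from 630 to 673 on control arrays. Of 9 tested, limma called 0, where 9.12% of all probe sets tested were called, and 1 had an unadjusted p under 0.05. That one was Lyz2, the lysozyme of macrophages, with 58.8, 52 and 49.7 on BMP4 arrays against 30, 40 and 17.5 on control arrays (log2 0.65, limma adjusted p = 0.0853). Of the mesenchymal markers, the hyaluronan receptor Cd44 rose on its counted probe set (log2 0.53, limma adjusted p = 0.0202). That call was lost without BMP4 replicate 3, control replicate 1, the filter or the intensity trend, and with median centring. Cd44 also rose on 2 further probe sets (log2 0.69, limma adjusted p = 0.00115, and log2 0.57, limma adjusted p = 0.00644). Both passed without the filter (limma adjusted p = 0.0063 and 0.0222). Another Cd44 probe set was under 29.1 on all arrays. The growth factor receptor Pdgfra fell (log2 -0.90, limma adjusted p = 6.34e-05). Of 10 endothelial markers 2 were above 29.1 on all arrays (Tek and Flt1), 3 on none (Pecam1, Tie1 and Vwf) and the others on some. Their summed signal was 232 to 397 with BMP4 and 291 to 379 in control. The endothelial receptor Tek fell (log2 -0.69, limma adjusted p = 0.0167), a call lost when BMP4 replicate 3, or control replicate 1 or 3, was left out. The part of other cell types in the values below was not tested. In bulk RNA, fewer cells that express a gene and less of its RNA per cell cannot be told apart.

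Differences were tested on log2(signal + 16) with limma over the 27022 probe sets whose mean was above the 40th percentile of all probe sets, a signal of 23.5, and called at a Benjamini-Hochberg adjusted p under 0.05. Of all probe sets tested 9.12% were called, 4.2% higher and 4.91% lower with BMP4. Higher calls were 46.1% of all calls, and 25.1% with median centring. Of the 84 member probe sets 36 were tested, for 26 genes, and 10 (27.8%) were called: 4 higher, for Cxcl12, Ccl9 and Ackr4, and 6 lower, for Cxcl5, Cxcl1, Ccl2, Ccl7 and Ackr3. The members tested had passed a minimum level, and the other 48 are described by their signals. The arrays of the groups did not overlap at 21 of the 36, against 28.2% of all probe sets tested, with BMP4 above at 13 (against 15%) and below at 8 (against 13.2%). The median log2 difference was 0.17 over the 36 and 0.03 over all probe sets tested. Leaving out BMP4 replicate 2 or control replicate 1 left 2 called higher, and leaving out control replicate 2 left 4 called lower.

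**Figure D2:**
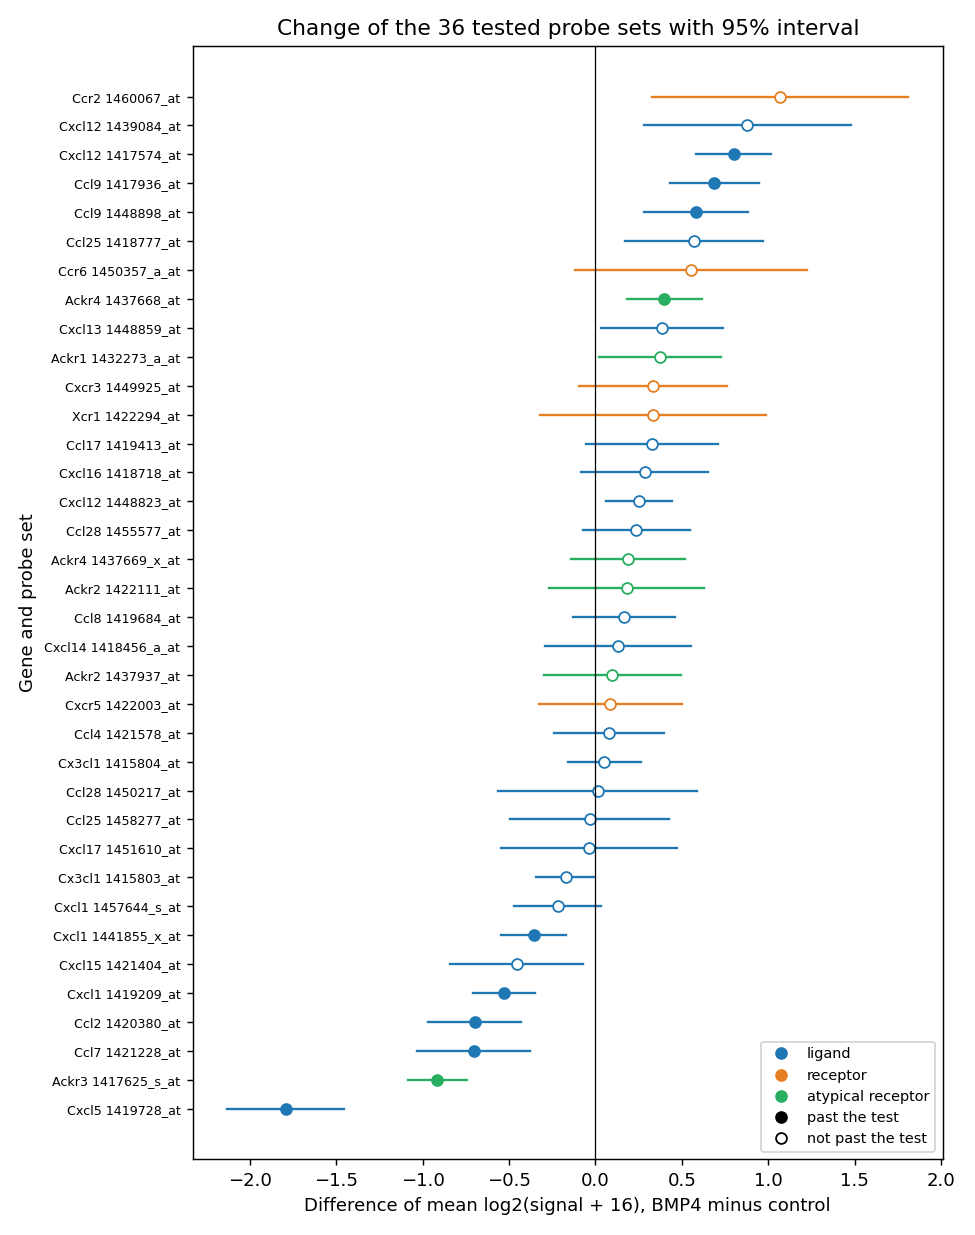
Difference of mean log2(signal + 16), BMP4 minus control, for the 36 tested probe sets, with limma 95% intervals, coloured by class; filled points passed the test. Cxcl5 at -1.79 lies at the lower end, and the intervals of Ccr2 and of the dim Cxcl12 probe set are wide.

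Among neutrophil-attracting CXC ligands, most of which act through the receptor Cxcr2, Cxcl5 and Cxcl1 fell. Cxcl5 had signals of 132.9, 90.3 and 85.3 with BMP4, against 462.6, 371.7 and 342.8 in control cells. Each BMP4 array was below each control array. Cxcl5 averaged 103 ± 26.2 with BMP4 and 392 ± 62.5 in control (SD, n = 3 each). Its log2 difference was -1.79 ± 0.15 (SE, limma adjusted p = 3.54e-05), or 3.46-fold lower on this scale. It was called under all 16 alternative settings, from -1.97 to -1.45.

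Cxcl1 was read by 3 probe sets, 2 of which passed. Probe set 1419209_at gave 274, 284.2 and 282.9 with BMP4, against 453.7, 402.9 and 380.2 in control. These groups did not overlap, and the log2 change was -0.53 ± 0.08 (SE, n = 3 each, limma adjusted p = 0.00195). Probe set 1441855_x_at gave 628.3, 580.7 and 536 with BMP4, against 711.5, 831.7 and 708.3 in control, a log2 change of -0.36 (limma adjusted p = 0.0239). Probe set 1457644_s_at overlapped between groups at 331.7, 347.2 and 288.4 with BMP4, against 443.6, 375.3 and 320.4 in control (log2 -0.22, 95% interval -0.47 to 0.03, limma adjusted p = 0.294). The suffixes x and s mark probe sets in which some or all probes also match other transcripts. The call on 1441855_x_at was lost when BMP4 replicate 2 or 3, or control replicate 2, was left out, and also without the filter or the intensity trend (adjusted p up to 0.116 over the alternatives).

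Of the 5 genes of this group, 2 fell and 0 rose. Cxcl2 and Cxcl3, their close relatives, were under 29.1 on every array, at 19.4, 16.2 and 16 for Cxcl2 with BMP4 against 8.1, 11 and 18 in control. Cxcl15, known from mouse lung epithelium, was dim at 39.7, 26.3 and 31.8 with BMP4, against 47.2, 49.8 and 54 in control. Its groups did not overlap, but the log2 value of -0.46 (95% interval -0.84 to -0.07) did not pass (limma adjusted p = 0.148). In the RefSeq gene table Cxcl5, Cxcl3, Cxcl15, Cxcl1 and Cxcl2 lie in this order in 1 cluster on chromosome 5, in which other genes can stand between members. The receptor Cxcr2 was at background, with 12.5, 3.1 and 4.5 on BMP4 arrays and 8.2, 11.2 and 12.7 on control arrays.

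**Figure D3:**
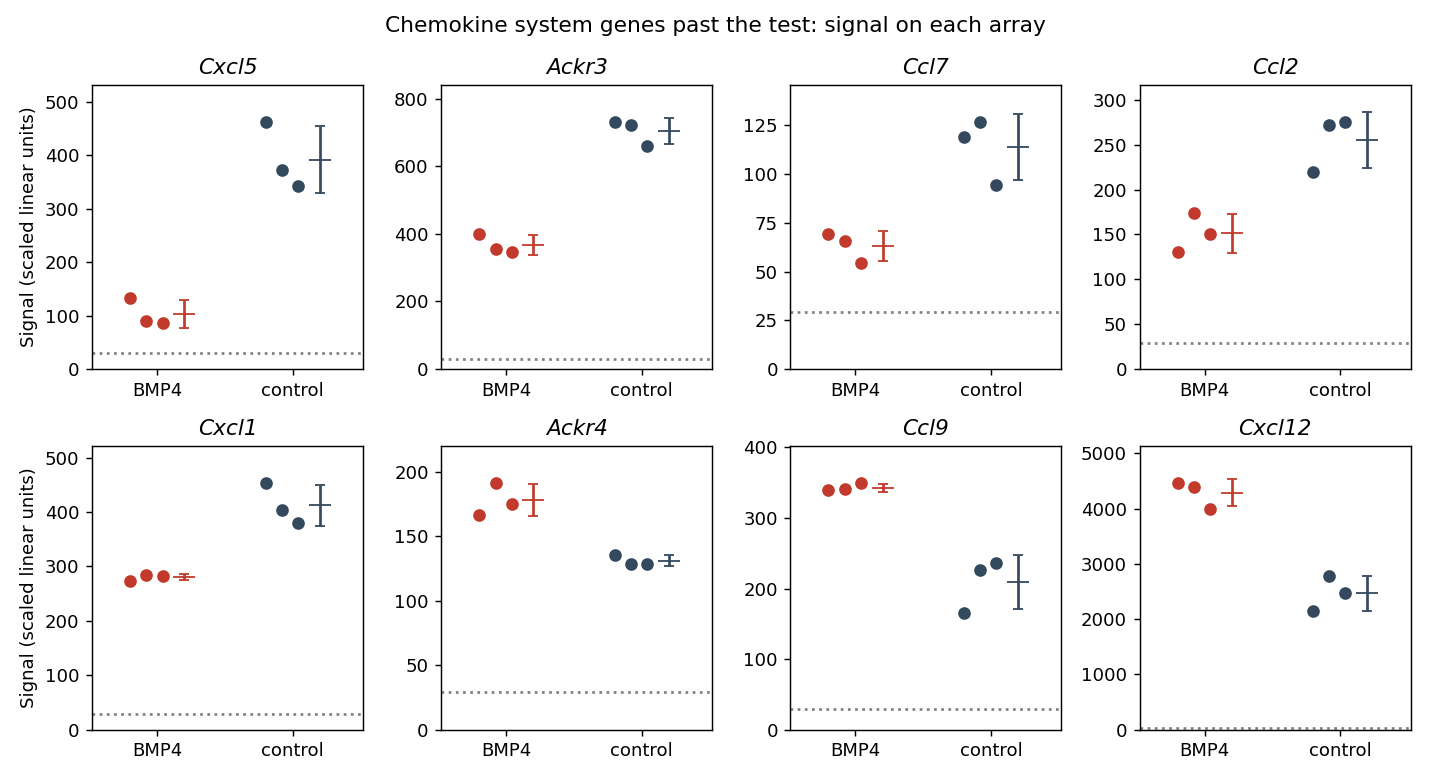
Signal on each array for 1 probe set of each of the 8 genes that changed (the one with the smallest p), with BMP4 left and control right in each panel; bars are mean ± SD of 3 arrays, and the dotted line marks 29.1. Groups do not overlap in any of the 8 panels.

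Of 4 monocyte-attracting CC ligands, Ccl2 and Ccl7, both ligands of Ccr2, fell. Ccl2 had signals of 130.4, 173.4 and 149.9 with BMP4, against 219.1, 271.7 and 275.3 in control, with no overlap. Its BMP4 mean was 151 ± 21.5 and its control mean 255 ± 31.5 (SD, n = 3 each), with a log2 difference of -0.70 ± 0.12 (SE, limma adjusted p = 0.00408). Ccl7 had 69.5, 65.8 and 54.4 with BMP4, against 119.3, 126.8 and 94.5 in control, also without overlap. The log2 change of Ccl7 was -0.71 ± 0.15 (SE, limma adjusted p = 0.0124), and its call was lost without control replicate 1 or control replicate 2 (adjusted p up to 0.066).

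Ccl2 and Ccl7 are the first of 6 member genes in a cluster on chromosome 11, followed by Ccl11, Ccl12, Ccl8 and Ccl1. Of these others, Ccl8 was above background and did not pass (log2 0.16, 95% interval -0.13 to 0.46, limma adjusted p = 0.517), with 74.5, 84.9 and 76.7 on BMP4 arrays against 63.7, 72.3 and 69.6 on control arrays. Ccl11, the eosinophil attractant eotaxin, and Ccl12, a further monocyte attractant, were at 3.5 or less on every array, and Ccl1 was at 20.1 or less. The receptor Ccr2 had 4 probe sets, 3 of them at background on all arrays. Probe set 1460067_at gave 100.6, 104.2 and 33.2 with BMP4, against 24.8, 15.7 and 41.8 in control. Of the control arrays, only replicate 3 was above background, so the difference is measured against a group mostly at background. Its groups overlapped through BMP4 replicate 3, and the log2 value was 1.07 with a 95% interval of 0.33 to 1.81 (limma adjusted p = 0.0783). Without BMP4 replicate 3 it was 1.49 and passed (adjusted p = 0.00574).

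Among 6 other inflammatory CC ligands, Ccl9, a macrophage inflammatory protein of mice that acts on Ccr1, rose on both of its probe sets. Probe set 1417936_at gave 338.9, 341.6 and 349.9 with BMP4, against 166, 226.1 and 235.8 in control. The groups did not overlap, and the control arrays spread more widely than the BMP4 arrays, at 343 ± 5.73 with BMP4 and 209 ± 37.8 in control (SD, n = 3 each). The log2 change was 0.69 ± 0.12 (SE, limma adjusted p = 0.00345) there, and 0.58 ± 0.14 (limma adjusted p = 0.0216) on 1448898_at, which had 198.6, 221.1 and 248.9 with BMP4 against 113.4, 162.8 and 157.9 in control. The call on 1448898_at was lost when BMP4 replicate 2 or 3, or control replicate 1, was left out (adjusted p up to 0.0825 over the alternatives), while 1417936_at was called under all 16.

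Ccl9 lies in a cluster of 5 members on chromosome 11, between Ccl5 and Ccl6 and ahead of Ccl3 and Ccl4. Ccl5, an attractant of T cells and monocytes, was under 29.1 in both groups, at 2.9, 2.8 and 3.1 on BMP4 arrays and 21, 21.7 and 15.3 on control arrays. Control replicates 1 and 2 lay above the top bacterial control of their own array (17.1 and 16.6), and control replicate 3 lay below its own (21). Every BMP4 array lay below every control array, but since all 6 values are under 29.1 no fold is given. Ccl5 was outside the test for its low mean, and when no filter was applied it passed (limma adjusted p = 0.00975). Ccl3 was at 4.6 or less on each array, and Ccl6 was under 29.1 except on 1 of its probe sets in BMP4 replicate 1 (40.3). Ccl4, a macrophage inflammatory protein, gave 99.5, 81 and 81.6 with BMP4, against 80.5, 70.6 and 95.1 in control (log2 0.08, 95% interval -0.24 to 0.40, limma adjusted p = 0.801). Ccl20, which attracts Ccr6-bearing cells, was at 8.1 or less. Ccr1, the receptor of Ccl9, was under 29.1 on both probe sets.

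Cxcl12, the ligand of Cxcr4 and Ackr3, rose with BMP4. Probe set 1417574_at gave 4469.4, 4390.6 and 4001.8 with BMP4, against 2149.5, 2785.2 and 2464.8 in control. The groups were well apart, at 4290 ± 250 with BMP4 and 2470 ± 318 in control (SD, n = 3 each), with a log2 difference of 0.80 ± 0.10 (SE, limma adjusted p = 0.000452), or 1.74-fold. Probe set 1448823_at gave 5984, 5915.6 and 5614.4 with BMP4, against 4528.2, 4903.9 and 5292.3 in control. It also did not overlap, but its log2 value of 0.25 (95% interval 0.06 to 0.44) missed the threshold (limma adjusted p = 0.109). Quantile or cyclic loess normalization brought it past the test, at 0.16 (adjusted p = 0.0489) and 0.17 (adjusted p = 0.0399). A dim probe set, 1439084_at, gave 44.4, 50.6 and 46.6 with BMP4, against 25.1, 29.8 and 5.5 in control, of which 1 control array was above 29.1. This dim probe set reached the test only through its BMP4 arrays, so its p-value is not given. Both bright probe sets point the same way, and the size of the difference varied between them.

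**Figure D4:**
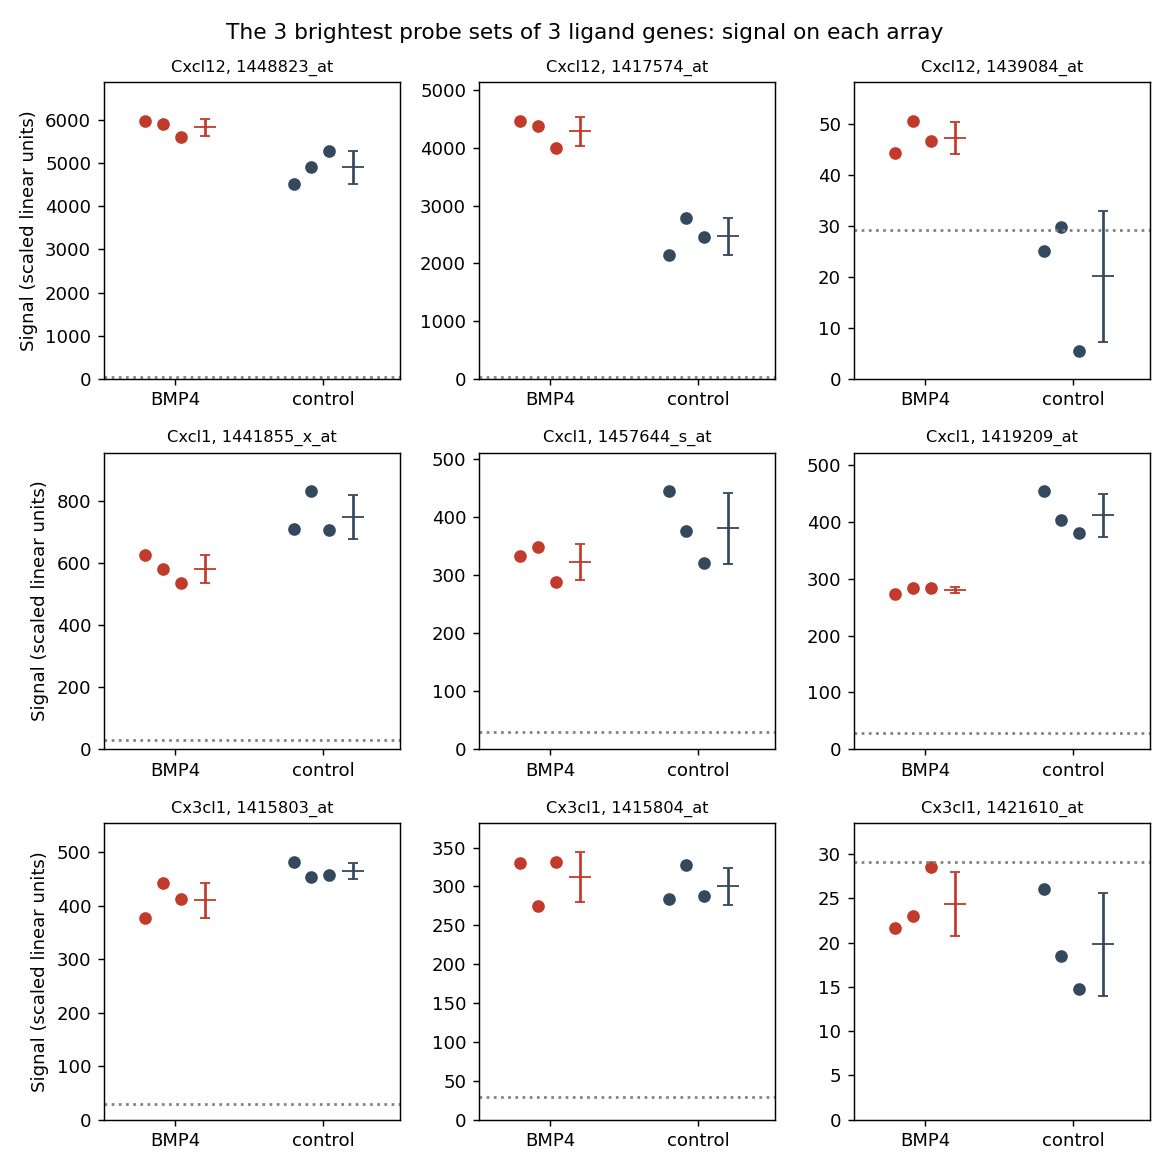
Signal on each array for the 3 brightest probe sets of Cxcl12, Cxcl1 and Cx3cl1 (1 gene per row), with BMP4 left and control right; bars are mean ± SD of 3 arrays, and the dotted line marks 29.1. The Cxcl12 probe sets are all higher with BMP4 by different amounts, 2 of 3 Cxcl1 probe sets have groups that do not overlap, and the groups overlap on 1415804_at of Cx3cl1 but not on 1415803_at.

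None of the other homeostatic and tissue ligands passed. Cxcl13, an attractant of B cells, gave 147.6, 114.5 and 89.5 with BMP4, against 82.2, 82.7 and 88.4 in control on 1448859_at. These did not overlap, with a log2 value of 0.38 (95% interval 0.03 to 0.74, limma adjusted p = 0.18). Its other probe set was under 29.1 throughout and pointed the other way without overlap. It gave 11, 10.5 and 5.5 with BMP4, against 15.8, 24.3 and 15 in control. Ccl25, known from thymus and gut, gave 71.4, 50.5 and 72.3 with BMP4, against 32.1, 45.6 and 37 in control on 1418777_at (log2 0.57, limma adjusted p = 0.0807). Its groups did not overlap there, while on 1458277_at they did, at 28.2, 43.8 and 58.8 with BMP4 against 42.3, 40.3 and 48.6 in control (log2 -0.03, limma adjusted p = 0.947). Ccl28, a mucosal ligand, gave 76.6, 71.1 and 85.2 with BMP4, against 57.4, 66.5 and 66.5 in control on its brightest probe set (log2 0.24, limma adjusted p = 0.358). Its groups did not overlap there, but did on a dim probe set (log2 0.01, limma adjusted p = 0.986). Cxcl14, an epithelial and fibroblast ligand, gave 68, 44.5 and 40.7 with BMP4, against 52, 41.3 and 40.4 in control (log2 0.13, limma adjusted p = 0.743). Cxcl17, a mucosal attractant, gave 133.2, 56.6 and 73.4 with BMP4, against 78, 79.9 and 100 in control (log2 -0.04, limma adjusted p = 0.947). Both overlapped between groups, and BMP4 replicate 1 was the highest array for each.

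Cx3cl1 and Cxcl16 are made as transmembrane proteins and shed by proteases, and neither passed. Cx3cl1 had 377.2, 442 and 411.9 with BMP4, against 481.4, 454.1 and 456.2 in control on 1415803_at, without overlap. On 1415804_at it had 329.9, 274.7 and 331.4 with BMP4, against 284.3, 327.6 and 287.7 in control, with overlap. The log2 values of these probe sets were -0.17 (95% interval -0.34 to -0.00, limma adjusted p = 0.211) and 0.05 (95% interval -0.16 to 0.26, limma adjusted p = 0.798). Cxcl16 gave 52.1, 47.7 and 48.5 with BMP4, against 35.5, 33.2 and 44.9 in control, without overlap (log2 0.29, limma adjusted p = 0.347). The receptor Cx3cr1 was under 29.1 except for 33.7 on BMP4 replicate 2 and 40 on control replicate 3.

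The interferon-inducible ligands Cxcl9, Cxcl10 and Cxcl11, which share the receptor Cxcr3, were at background in both groups, with no signal above 26.7 on any of 5 probe sets. Cxcl10 read 24.1, 10.5 and 10.9 with BMP4 and 15.4, 13.9 and 5.5 in control. Of the 6 ligands of type 2 and other T cell responses, Ccl17 was above background, at 57.7, 55 and 53.8 with BMP4 against 40.6, 51.5 and 32.6 in control. It did not pass (log2 0.33, 95% interval -0.06 to 0.71, limma adjusted p = 0.301). Ccl1, Ccl11, Ccl22, Ccl24 and Xcl1 were under 29.1 on all 6 arrays.

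The 16 signalling receptors gave no gene above background on all arrays. Of their 5 tested probe sets 0 were called (1 at an unadjusted p under 0.05, Ccr2), where 9.12% of all probe sets tested were called. With 5 tested, 0 called does not set receptors apart from that share. Of 26 receptor probe sets 18 never exceeded 28.9. Cxcr4, the signalling receptor for Cxcl12, read 6.7, 8.7 and 11.7 with BMP4 and 4.8, 9.4 and 1.8 in control. Cxcr3, the receptor of the interferon-inducible ligands, had 58.2, 48.4 and 47.5 with BMP4 against 27.3, 36.8 and 50.2 in control (log2 0.33, limma adjusted p = 0.344). Ccr6 and Xcr1 overlapped between groups and crossed the background level on 2 and 3 arrays. Ccr3, Ccr4, Ccr7, Ccr8 and Cxcr5 were at background on every array, and Ccr9, Ccr10 and Cxcr6 exceeded it on 1 array each. Ccr6, Xcr1 and Cxcr5 are among the 5 tested, but reached the test only through their BMP4 arrays, so their p-values are not given.

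Atypical receptors were measured in all arrays, and Ackr3 fell while Ackr4 rose slightly. Ackr3, which takes up Cxcl12 and signals through arrestins, was read by probe set 1417625_s_at alone. The suffix s marks probes that can also match other transcripts. Ackr3 gave 399.4, 354 and 345.8 with BMP4, against 730.6, 721.5 and 660.8 in control. The groups were far apart relative to their spread, at 366 ± 28.9 with BMP4 and 704 ± 37.9 in control (SD, n = 3 each). The log2 change was -0.91 ± 0.08 (SE, limma adjusted p = 3.29e-05), called under all 16 alternatives, from -1.01 to -0.84. On the same arrays its ligand Cxcl12 was higher.

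Ackr4, which clears Ccl19, Ccl21 and Ccl25, gave 166.7, 191.5 and 175.3 with BMP4, against 135.7, 128.5 and 128.6 in control on 1437668_at. These did not overlap, with a log2 difference of 0.40 ± 0.10 (SE, n = 3 each, limma adjusted p = 0.0284). On 1437669_x_at the groups overlapped at 114.7, 177.4 and 125.8 with BMP4, against 112.2, 113.4 and 129.7 in control (log2 0.19, limma adjusted p = 0.499). The call was lost under 8 of 16 alternatives, among them leaving out BMP4 replicate 2 or 3 or any 1 control replicate, with adjusted p up to 0.115. Ackr1, a binder of many inflammatory chemokines known from red cells and venules, gave 93.2, 64.7 and 82 with BMP4, against 59, 50.6 and 63.7 in control without overlap (log2 0.37, 95% interval 0.02 to 0.73, limma adjusted p = 0.198). Ackr2, which degrades inflammatory CC chemokines, gave 47.8, 52.7 and 46 with BMP4, against 40.9, 28.3 and 58 in control on 1422111_at (log2 0.18, limma adjusted p = 0.651). On 1437937_at it gave 48.6, 44.3 and 33.2 with BMP4, against 43.4, 34.7 and 36 in control (log2 0.10, limma adjusted p = 0.802). The groups overlapped on both. A further probe set each of Ackr2 and Ackr4 was under 29.1 on all arrays.

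Of 7 related genes with other names that were tested, 1 rose and 1 fell, against 4.2% and 4.91% of all probe sets tested. Their median log2 difference was 0.09. The one that rose was Mif, a cytokine that binds Cd74 and chemokine receptors, with 3146.5, 3107.6 and 3226.5 with BMP4 against 1785.4, 2203.7 and 2166.2 in control (log2 0.63, limma adjusted p = 0.00109). Rarres2, the attractant chemerin, fell, with 68.4, 53.4 and 45.7 with BMP4 against 125.9, 89 and 98.5 in control (log2 -0.75, limma adjusted p = 0.0186). Rarres2 fell on another probe set (log2 -1.05, adjusted p = 0.0152), and another, dim one gave 0.57. That dim one reached the test only through its BMP4 arrays, so its p-value is not given. The call on the brightest Rarres2 probe set was lost when BMP4 replicate 2 or 3, or control replicate 1, was left out, and also without the filter. The platelet chemokine Ppbp was not tested for its low mean, and Pf4, likewise from platelets, was dim, at 42.2 on average with BMP4 and 53.3 in control (log2 -0.24, limma adjusted p = 0.475).

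Genes that feed into chemokine transcription were described by 3 lists. Of 12 tested NF-kappaB genes 0 rose and 3 fell by this count, where 4.2% of all probe sets tested rose and 4.91% fell. Their median log2 difference was -0.29, against 0.03 over all probe sets tested. The number lower was 2 without the filter, the intensity trend or control replicate 2, and 1 was higher with quantile normalization. Nfkb2, a subunit, had 17.8, 40.8 and 57.9 with BMP4 against 87.6, 122.5 and 96.6 in control (log2 -1.17, limma adjusted p = 0.0155). The co-factor Nfkbiz changed by -0.97 and the inhibitor Tnip1 by -0.56 (limma adjusted p = 0.000355 and 0.000848). Other probe sets differed: Nfkb2 gave -0.61 (adjusted p = 0.0632), Nfkbiz gave -0.54 (adjusted p = 0.0106) and, on a dim one, 0.74 (adjusted p = 0.0493). The inhibitor Nfkbia, itself an NF-kappaB target, gave 0.33 (adjusted p = 0.0975) on its brightest probe set, and Rela, the main activating subunit, gave -0.11 (adjusted p = 0.508). Ikbkb, a kinase that activates NF-kappaB, was higher on 1 further probe set, at 104.4, 66.8 and 65.4 with BMP4 against 48.4, 41.9 and 34.9 in control (log2 0.70, adjusted p = 0.0442), and did not pass on its probe set with the highest mean (log2 -0.08, adjusted p = 0.61). Nfkbia passed upward on 1 of its 4 other probe sets (log2 0.66, adjusted p = 0.00221).

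Of 17 tested receptors and adaptors for inflammatory signals 1 rose and 4 fell, against 4.2% and 4.91% of all probe sets tested. Il1rap, the accessory chain of the interleukin-1 receptor, rose by a log2 value of 0.81 (limma adjusted p = 0.000825), while Il1r1, the chain that binds the ligand, changed by -0.59 (adjusted p = 0.00155). The shared signalling chain Il6st changed by -0.69 (adjusted p = 0.000142), and the number lower was 2 without control replicate 2 or the intensity trend. Of 17 interferon pathway genes 0 rose and 4 fell, where 4.2% of all probe sets tested rose and 4.91% fell, led by the guanylate-binding protein Gbp2 (log2 -0.78, limma adjusted p = 0.0126), the transcription factor Irf1 (-0.43, adjusted p = 0.00543) and Stat2 (-0.34, adjusted p = 0.0382). The interferon count varied: 2 were lower with a replicate block or when BMP4 replicate 1 or 2, or control replicate 3, was left out. Without the intensity trend, or when control replicate 1 or 2 was left out, 1 was lower, near that share. The tested genes of the input and interferon lists had median log2 differences of -0.07 and -0.05.

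Of 17 tested carriers of receptor signals 0 rose and 1 fell, near the 4.91% lower over all probe sets tested. It was the receptor kinase Grk5 (log2 -0.54, limma adjusted p = 0.00906), a call lost without control replicate 1, and 1 carrier was higher without BMP4 replicate 3. Their median log2 difference was 0.01, and Rgs3, which damps G protein signals, was lower on a further probe set (log2 -0.45, adjusted p = 0.00421). Of 14 tested proteases that cleave chemokines 0 rose and 3 fell, against 4.2% and 4.91% of all probe sets tested. Their median log2 difference was -0.06. On further probe sets Mmp2, a gelatinase that cleaves Cxcl12, was higher (log2 0.29, adjusted p = 0.0338), at 3461.6, 3410.2 and 3244.3 with BMP4 against 2613.2, 2809.2 and 2862.7 in control, and the cathepsin Ctsb was lower (log2 -0.43, adjusted p = 0.0034, and -0.31, adjusted p = 0.0397). Mmp3 had 55.6, 52.1 and 37.9 with BMP4 against 698.1, 676.6 and 619.7 in control (log2 -3.41, limma adjusted p = 9.39e-08). Mmp13 was under background on 3 of 3 BMP4 arrays, at 7.1, 1.7 and 2.5, against 113.1, 120.6 and 110.5 in control. This is at least 3.94-fold lower when set against 29.1. Mmp13 reached the test only through its control arrays, so its p-value is not given. It is counted among the 3 that fell, and the number lower was 2 with a pseudocount of 1 or the filter at the 60th percentile. The aminopeptidase Anpep changed by -1.10 (adjusted p = 6.2e-05).

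Of the 10 called member probe sets, those of Cxcl5, Ackr3, Ccl2 and Cxcl12 and 1 each of Cxcl1 and Ccl9 were called under all 16 alternative settings. Ccl2 ranged from -0.80 to -0.57 on the log2 scale, Cxcl12 from 0.71 to 0.89, Cxcl1 (1419209_at) from -0.62 to -0.46 and Ccl9 (1417936_at) from 0.54 to 0.78. The calls on Ccl7 (14 of 16), Ackr4 (8 of 16) and the other Cxcl1 and Ccl9 probe sets (11 and 10 of 16) depended on the setting.

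**Figure D5:**
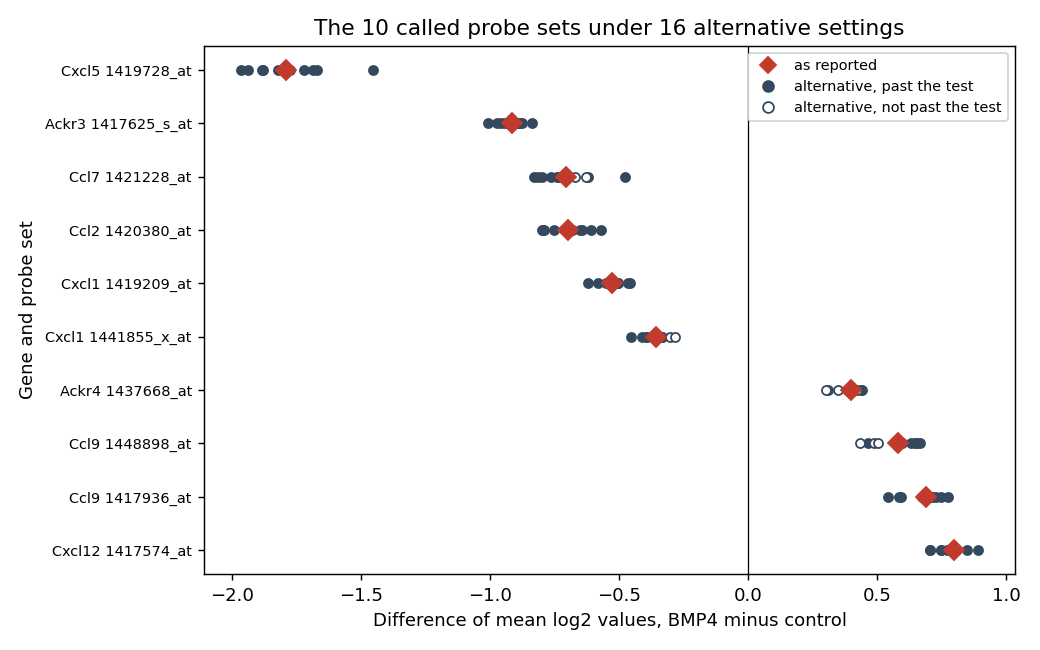
Log2 difference, BMP4 minus control, of the 10 called probe sets as reported (diamonds) and under 16 alternative settings (circles, open where the adjusted p was not under 0.05). No value crosses 0, and open circles occur for Ccl7, Ackr4 and the second probe sets of Cxcl1 and Ccl9.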

How the data were processed

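Total RNA of 6 samples was measured on 1-colour arrays, with groups and replicate numbers from the sample titles. The authors deposited linear intensity values from GCOS 1.3, per the submitters' processing notes. How they scaled the arrays and corrected background is not given in the sources used here. Equal trimmed means are what global scaling gives, so no scaling was added, and a change common to most transcripts could not be detected. As no detection calls are included, unspiked bacterial control probe sets gave the background, and the number of arrays limits the precision. After removal of 64 control probe sets, log2(signal + 16) values were compared by limma 3.58.1 under R 4.3.3 (linear fits and two-sided moderated tests from eBayes with an intensity trend). P-values were adjusted by the Benjamini-Hochberg method over the 27022 probe sets that passed the filter. An exact permutation test of 3 against 3 arrays cannot pass, so none was run. Fold changes on the log2(signal + 16) scale understate the change of dim genes. Platform symbols named 34958 probe sets singly, 932 with several symbols and 9211 with none, and no gene was named from several. The GRCm38.p6 gene table held all 84 member probe sets' genes, with 0 symbols changed, and served for names and gene order only (clusters allow up to 2 other protein-coding genes between members).

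Members and lists were chosen with earlier results of these data known. Other lists use, per gene, the probe set with the highest mean. Named were members past the test, members above background on all arrays, further members with small p, and up to 3 called genes per list; members near background are given in groups, and some list genes that did not pass (Rela, Nfkbia, Pf4 and Ppbp), and probe sets of Ikbkb, Mmp2, Ctsb and Rgs3 that differ from their gene's counted one, were added after their values were seen. Ligand role groups were set after the data were seen. Further probe sets of Cd44 were likewise added after their values were seen. The fit was tested on simulated data first. Alternatives tried were other pseudocounts, filters and normalizations, variance settings, a replicate block and leaving out each array.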

Additional observations from a re-analysis of the deposited data

How the results depend on the processing

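Of 160 refits of the 10 called probe sets, 139 kept the call, 21 lost it and 0 changed direction. The number of all probe sets called was 2464 as reported and 1422 without the intensity trend, and 1622 to 1996 when any 1 array was left out, the lowest without control replicate 2. Member probe sets higher numbered 4 as reported, 2 with median centring, 2 without the intensity trend and 2 to 4 when any 1 array was left out. Member probe sets lower numbered 6 as reported, 5 without the intensity trend and 4 to 6 when any 1 array was left out. Median centring moved the median of all tested probe sets by -0.09, and 25.1% of its calls were higher, against 46.1% as reported. With a replicate block 2090 probe sets were called, with 3 members higher and 6 lower, and Ackr4 was lost. Same-numbered arrays did not deviate together (correlations of deviations from -0.07 to 0.01, with 0 of 3 arrays closest to their own number). With 3 arrays per group these values cannot tell whether the numbers mark shared batches, which the labels do not say.

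Some members that did not pass changed sign near 0. With median centring the log2 values were -0.042 for Cx3cl1 (1415804_at), -0.016 for Ccl4, -0.0086 for Cxcr5 and -0.083 for Ccl28 (1450217_at). Quantile normalization gave -0.0011 for Cxcr5 and -0.077 for Ccl28, and cyclic loess gave -0.0005 for Cxcr5 and -0.081 for Ccl28. Leaving out any 1 array gave ranges of -0.043 to 0.24 for Cxcl14, -0.0073 to 0.17 for Ccl4, -0.0026 to 0.37 for Ackr2 (1422111_at), -0.22 to 0.18 for Ccl28, -0.33 to 0.19 for Cxcl17 and -0.21 to 0.17 for Ccl25 (1458277_at). The cause was not tested. Signals near 29.1 limit every statement on receptors and dim ligands.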
